A study of Homo sapiens with 6 samples.

Results

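Cytochrome c oxidase, complex IV of the respiratory chain, was followed here through 10 genes measured in SH-SY5Y cells. They were 9 genes for factors that build the enzyme (SCO1, SCO2, COX10, COX11, COX15, COX17, SURF1, COA3 and COX14) and MTLN, the gene of a mitochondrial micropeptide. The genes were taken by symbol from a table of 61860 genes, and all 10 were found, each in 1 row. They were chosen because SCO2 and MTLN lay among the most strongly lowered protein-coding genes in the comparison described, so the values of the 10 genes in that comparison are given as a description, and none of them is offered as a test.

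SH-SY5Y is an established human neuroblastoma line. In both groups the cells had been differentiated with all-trans retinoic acid and then exposed to 100 nM insulin with 30 mM D-glucose for 24 h, the study's way to induce insulin resistance (IR). The IR control group (3 libraries) received nothing more per the labels, and the IR+Oligonol group (3 libraries) received Oligonol, a low-molecular-weight polyphenol preparation from lychee fruit, at 500 ng/mL for 24 h. No cells spared the insulin and glucose exposure were analysed here, so the values compare insulin-treated cells with and without Oligonol. Both groups are cultures of 1 tumour-derived line.

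Complex IV passes electrons from cytochrome c to oxygen through copper centres and haem A groups held by subunits that the mitochondrial genome encodes. These cofactors are inserted by dedicated factors. COX17 hands copper to SCO1 and SCO2, which load the binuclear copper site of the subunit COX2, and to COX11, which serves the copper site of COX1. COX10 and COX15 make haem A in successive steps, and SURF1 acts when haem A enters COX1. COA3 and COX14 hold newly made COX1 before the cofactors go in. Loss of SCO1, SCO2, COX10, COX15 or SURF1 causes inherited complex IV deficiency, often with disease of the brain or heart. MTLN encodes mitoregulin, a short inner-membrane protein known for its links to fatty acid oxidation and to respiratory complexes.

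The 2 genes on which the choice rested are shown first by sequence. The MTLN reading frame, in its shorter annotated form of 56 codons, lies in 1 exon at chr2:110212355-110212525 on the minus strand of GRCh38 (GENCODE 29 annotation). It is shown whole because it is the entire small protein's code, with the start and stop codons in capitals. A second annotated frame of 138 codons ends with the same bases.
MTLN: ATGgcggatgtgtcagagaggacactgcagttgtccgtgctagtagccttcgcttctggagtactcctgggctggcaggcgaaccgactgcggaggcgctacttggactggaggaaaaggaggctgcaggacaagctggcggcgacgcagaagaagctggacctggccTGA

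SCO1 and SCO2 are close relatives, and each bears 1 pair of cysteine codons spaced as in the copper site. The 25 codons around that pair are shown for both genes, with the cysteine codons in capitals, since the pair of genes differs in base composition and in the comparison below. The SCO1 stretch lies at chr17:10692777-10692851 and the SCO2 stretch at chr22:50523971-50524045, both exonic, coding and on the minus strand of GRCh38.
SCO1: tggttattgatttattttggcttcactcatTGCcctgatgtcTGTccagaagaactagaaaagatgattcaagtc
SCO2: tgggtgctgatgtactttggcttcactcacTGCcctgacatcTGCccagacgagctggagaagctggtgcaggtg
Of the 75 bases, 18 differed between the genes, 13 of them at the third codon position. At 12 of these 13 positions SCO2 had G or C where SCO1 had A or T, and at 0 was it the other way round. The stretch held 37.3% G or C in SCO1 and 57.3% in SCO2. Over the whole coding sequence the share was 52.0% in SCO1 and 63.0% in SCO2, against 60.8% in the MTLN frame.

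A few facts of the libraries bear on every value below. Estimated counts per library summed to between 22738203 and 32209583 in controls and to between 19457923 and 20912945 with Oligonol. Protein-coding genes held 6.24 to 6.83% of these sums in controls and 10.0 to 12.3% with Oligonol, which is an estimated 5191607 to 6406330 and 5231278 to 5504050 reads. The count-weighted G+C content (GC) of protein-coding transcripts was 55.0 to 55.1% in controls and 51.6, 53.4 and 51.8% in Oligonol 1, 2 and 3. Transcript GC, the median over a gene's annotated transcripts, ran from 42.8% in COX11 to 66.4% in SCO2 among the 10 genes. The part that this composition difference has in the values of single genes was not tested. The difference of each of the 10 genes is therefore also given after a smooth trend of expression on GC was removed from each library. Of 15 neuroblast and neuron markers, 14 passed the filter on low counts, and their summed CPM (defined below) was 374 to 457 in controls and 235 to 327 with Oligonol, with 4 markers lower and 1 higher (edgeR, adjusted p under 0.05), none of which was called with the GC trend removed. TUBB3, neuronal tubulin, was at 119 and 54.0 CPM (called lower), ELAVL4, a neuronal RNA-binding protein, at 8.41 and 15.5 CPM (called higher), PHOX2A, the sympathetic neuron regulator, at 79.8 and 45.1 CPM (no call), and TH, the first enzyme of catecholamine synthesis, near 0 (0.0869 and 0.0319 CPM). Among markers of other cell types, the myeloid and lymphoid genes summed to 0.614 to 1.55 CPM and 0.801 to 1.37 CPM, and 7 glial genes to 1.98 to 2.47 and 2.77 to 3.87 CPM. The 7 fibroblast genes summed to 16.0 to 20.0 and 12.4 to 14.1 CPM and the 5 epithelial genes to 9.34 to 11.1 and 4.44 to 6.16 CPM.

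Levels are given as CPM, the estimated counts as a rate of the library size after TMM scaling (trimmed mean of M-values, which assumes that most genes do not change). The deposited values followed abundance per transcript length in low genes with 1 transcript (see the processing section), and levels are compared between genes on that footing. For genes with more than 1 transcript, as all 10 are, this was not checked, so such comparisons are approximate. A difference is the log2 fold change of IR+Oligonol over IR control with its standard error (SE), from edgeR's quasi-likelihood fit to all 16574 genes that passed the filter on low counts. In bulk samples, fewer cells of a type and less RNA per cell cannot be told apart. All 10 genes passed the filter. At a Benjamini-Hochberg adjusted p under 0.05, 3 of the 10 were called lower with Oligonol (SCO2, MTLN and COX14), beside 23% of all genes tested, and 1 was called higher (COX15), beside 26%. The groups did not overlap in these same 4 genes, beside 62.6% of all genes tested. Since the genes were chosen from this comparison, nothing is read from these counts. The median log2 fold change of the 10 genes was -0.50, that of all genes tested 0.15.

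**Figure D1:**
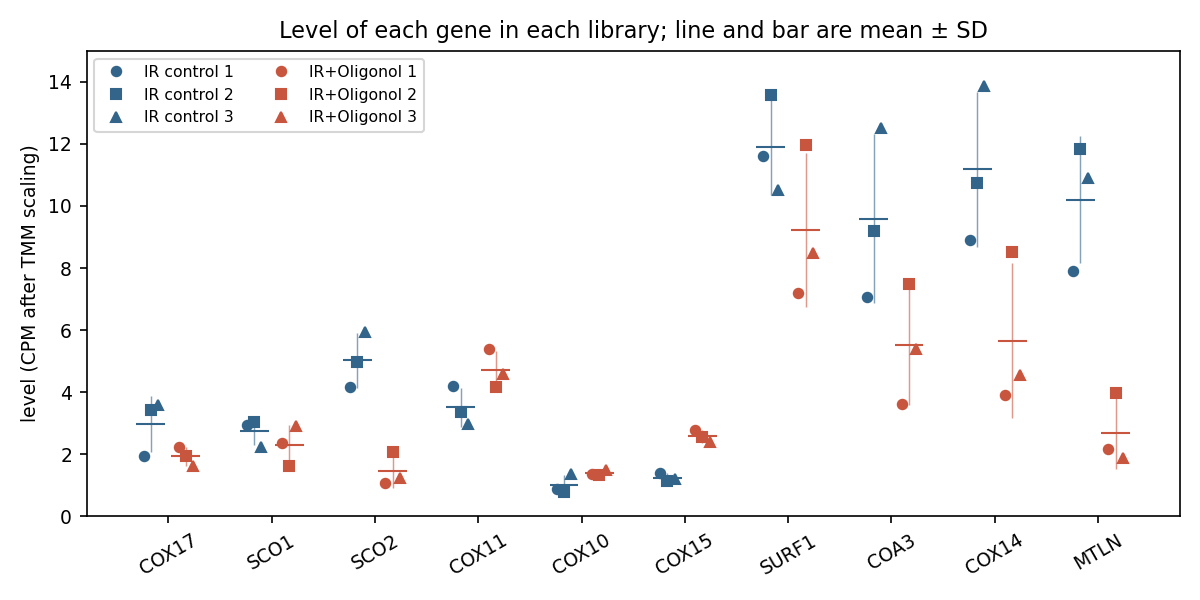
Level of each of the 10 genes in each library, in CPM on a linear axis from 0, with the 3 IR control (blue) and 3 IR+Oligonol (red) libraries as points, the group mean as a horizontal line and the SD as a vertical one. The SCO2 and MTLN points of the Oligonol libraries lie below all control points, those of COX15 lie above, and the 6 genes with no call have overlapping groups.

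Among the copper factors, COX17, at chr3:119654513-119677454 and the chaperone that brings copper to the others, was at 1.94, 3.43 and 3.58 CPM in controls 1, 2 and 3 and at 2.23, 1.95 and 1.62 CPM in Oligonol 1, 2 and 3. Control 1 lay within the Oligonol range and the other control libraries above it. The log2 fold change was -0.63 (SE 0.26, no call). Its transcripts are short (median 555 nt), and an estimated 48.1 to 91.7 reads in controls and 51.6 to 72.0 with Oligonol stood behind these levels.

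SCO2 (ENSG00000284194), at chr22:50523568-50526461, was at 4.17, 4.98 and 5.94 CPM in controls and at 1.07, 2.09 and 1.23 CPM with Oligonol. Every control library lay above every Oligonol library, and Oligonol 2 was the highest of its group. The group means were 5.03 ± 0.888 and 1.46 ± 0.550 CPM (SD, n = 3 each), a log2 fold change of -1.79 (SE 0.28) or 3.47-fold lower with Oligonol. An estimated 176 to 261 reads in controls and 58.6 to 103 with Oligonol lay behind SCO2.

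SCO1, at chr17:10672474-10698375 and its relative with the copper site shown above, was at 2.94, 3.05 and 2.23 CPM in controls and at 2.35, 1.62 and 2.91 CPM with Oligonol. The groups overlapped, and the log2 fold change was -0.24 (SE 0.25, no call). The ratio of SCO2 to SCO1 within a library, which no scaling between libraries can move, was 1.42, 1.63 and 2.66 in controls and 0.454, 1.29 and 0.421 with Oligonol. SCO2 thus stood above SCO1 in all control libraries and in Oligonol 2, and below it in Oligonol 1 and 3. The ratio was not adjusted for GC, in which the 2 genes differ. With the GC trend removed, the log2 fold changes were -0.81 for SCO1 and -0.80 for SCO2.

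COX11, at chr17:54951902-54968703, which serves the copper site of COX1, was at 4.21, 3.37 and 2.98 CPM in controls and at 5.38, 4.16 and 4.60 CPM with Oligonol. Only control 1 reached into the Oligonol range. The log2 fold change was 0.42 (SE 0.20, no call), opposite in sign to those of COX17, SCO1 and SCO2.

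Of the haem A enzymes, COX10, at chr17:14069490-14231736 and the farnesyltransferase that makes haem O, had the lowest mean of the 10 genes in both groups, at 0.877, 0.800 and 1.38 CPM in controls and 1.36, 1.34 and 1.48 CPM with Oligonol. Control 3 lay within the Oligonol range, and the log2 fold change was 0.43 (SE 0.27, no call).

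COX15 (ENSG00000014919), at chr10:99710868-99732127, turns haem O into haem A. It was at 1.40, 1.14 and 1.22 CPM in controls and at 2.79, 2.56 and 2.39 CPM with Oligonol. The groups were far apart relative to their spread, with means of 1.25 ± 0.132 and 2.58 ± 0.204 CPM (SD, n = 3 each). The log2 fold change was 1.04 (SE 0.18), or 2.06-fold higher, on an estimated 148 to 192 reads in controls and 411 to 500 with Oligonol. Within libraries the ratio of COX15 to COX10 was 1.60, 1.43 and 0.884 in controls and 2.05, 1.92 and 1.61 with Oligonol, so the 2 groups of ratios were apart, by a narrow margin between control 1 and Oligonol 3.

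SURF1, at chr9:133351758-133356676 and the factor for haem A entry, was the most abundant of the 10 in both groups, at 11.6, 13.6 and 10.5 CPM in controls and 7.18, 12.0 and 8.49 CPM with Oligonol. Oligonol 2 lay within the control range and the other Oligonol libraries below it. The log2 fold change was -0.37 (SE 0.24, no call).

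COX14 (ENSG00000178449), at chr12:50112082-50120457 and one of the factors that hold new COX1, was at 8.91, 10.8 and 13.9 CPM in controls and at 3.92, 8.52 and 4.54 CPM with Oligonol. The groups were apart, but Oligonol 2 came close to control 1. The means were 11.2 ± 2.50 and 5.66 ± 2.49 CPM (SD, n = 3 each), and the log2 fold change was -0.99 (SE 0.32). The call was lost when control 2, control 3, Oligonol 1 or Oligonol 3 was left out, with log2 fold changes of -1.02, -0.80, -0.77 and -0.85.

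COA3, at chr17:42795147-42798704 and the partner of COX14, was at 7.08, 9.20 and 12.5 CPM in controls and at 3.63, 7.48 and 5.40 CPM with Oligonol. Oligonol 2 overlapped control 1, and the log2 fold change was -0.81 (SE 0.31, no call). The ratio of COA3 to COX14 within a library ran from 0.795 to 0.902 in controls and from 0.879 to 1.19 with Oligonol, and these ranges overlapped.

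MTLN (ENSG00000175701), at chr2:110211529-110245420, was at 7.89, 11.8 and 10.9 CPM in controls and at 2.17, 3.97 and 1.88 CPM with Oligonol. Every control library was above every Oligonol library, and Oligonol 2 was again the highest of its group. The means were 10.2 ± 2.06 and 2.68 ± 1.13 CPM (SD, n = 3 each), a log2 fold change of -1.95 (SE 0.31) or 3.86-fold lower. An estimated 149 to 212 reads in controls and 45.8 to 86.8 with Oligonol lay behind it. By log2 fold change MTLN was the 5th and SCO2 the 15th from the lowest of 11719 protein-coding genes tested, the values for which both were chosen.

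Oligonol 2 was the highest Oligonol library for SCO2, MTLN, COX14, COA3 and SURF1, and it was also the Oligonol library whose GC was nearest to the controls. Without Oligonol 2 the log2 fold changes were -2.13 for SCO2, -2.34 for MTLN and -1.41 for COX14. SCO2, MTLN and COX15 kept their calls with each library left out in turn, in fits where 1321 to 4381 of all genes were called lower. As SCO2 and MTLN were chosen for low values in these same libraries, nothing is read from this. With the GC trend removed, COX15 had no call, and SCO2 and MTLN lost theirs in most of these omissions, as given below.

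The scaling decides the direction for some of these genes. Scaling by library totals alone moved the median log2 fold change of all genes from 0.15 to 1.53. Most of each library total lay in 5 small RNAs. They held 70.1, 72.7 and 74.7% of it in controls 1, 2 and 3, and 58.1, 62.0 and 56.2% in Oligonol 1, 2 and 3. Their part in the shift was not tested. With library totals alone SCO1 was at 1.17, COX17 at 0.80, SURF1 at 0.95, COA3 at 0.55 and COX14 at 0.34, all opposite in sign to the values above. SCO2 was at -0.45, with its call lost, and MTLN at -0.61, still called lower, while COX15 was at 2.42 and COX10 at 1.85. As a share of protein-coding counts, the log2 ratio of Oligonol to control was -1.22 for SCO2, -1.37 for MTLN, 1.62 for COX15 and 1.06 for COX10. On this scale SCO1 (0.34) and SURF1 (0.18) were positive, COX11 was at 1.00, COX17 at -0.0017, COA3 at -0.23 and COX14 at -0.42. Across the 24 other ways of processing that were tried, SCO2 and MTLN were lower and COX15 and COX10 higher in each, and the size of the difference ran from -2.13 to -0.45 for SCO2, from -2.34 to -0.61 for MTLN and from 0.57 to 2.42 for COX15. All of these ways re-use the libraries from which SCO2 and MTLN were chosen, so the shared sign is no test.

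Transcript GC and the order of the fold changes ran together. Among the 10 genes, Spearman's rho between transcript GC and log2 fold change was -0.64, and across 11719 protein-coding genes it was -0.85, both given as descriptions across genes, which share their libraries. Protein-coding genes were divided into 10 bins by GC. SCO2, at 66.4%, fell in the bin of 62.4 to 74.2%, in which 81.7% of genes were called lower and 0.171% higher, and the median log2 fold change was -1.05. MTLN (56.6%) and SURF1 (56.9%) fell in the bin of 56.5 to 59.3%, in which 62.9% were called lower and 0.853% higher, and the median was -0.79. SCO2 at -1.79 and MTLN at -1.95 lay below the medians of their bins, which follows from their choice by this value. SURF1, at -0.37, lay above. COX15 (47.5%), COX17 (46.3%) and SCO1 (46.1%) shared the bin of 44.9 to 47.5%, in which 43.6% of genes were called higher and 1.28% lower, with a median of 0.61. COX15 was above that median, and COX17 and SCO1 were below it. COX11 (42.8%) lay below the median of its bin, 0.80, where 56.1% were called higher and 0.597% lower. COX10 (51.5%) lay above that of its own, -0.10, where 5.89% were called higher and 10.6% lower. COA3 (56.3%) and COX14 (54.7%) shared a bin with a median of -0.46 and shares of 1.45% higher and 36.7% lower, and both lay below it.

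**Figure D2:**
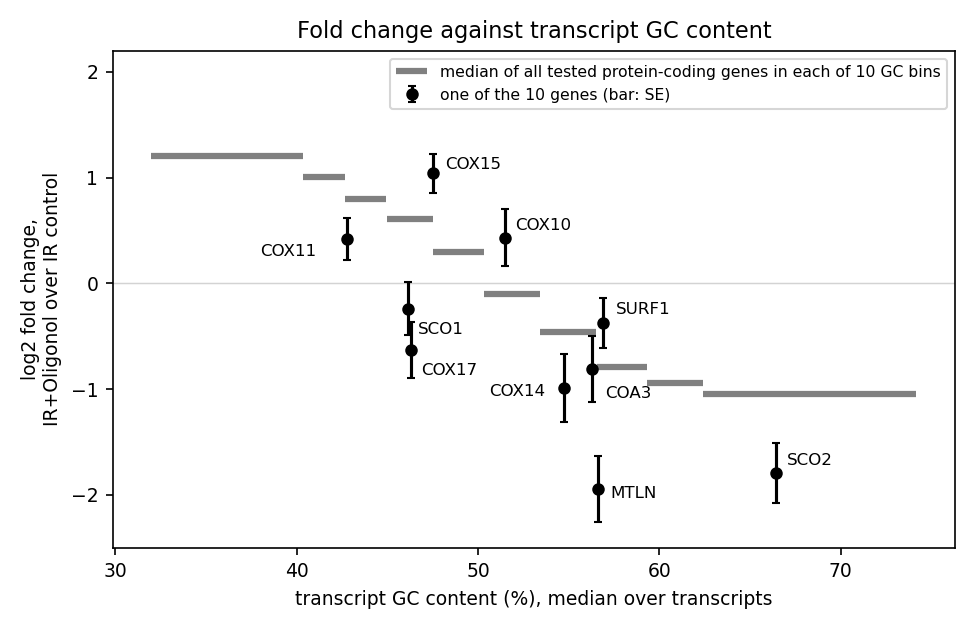
Log2 fold change of IR+Oligonol over IR control (vertical axis, with bars of 1 SE) against median transcript GC in percent (horizontal axis) for the 10 genes, over the median of protein-coding genes in 10 GC bins drawn as lines. SCO2, MTLN, COX17, SCO1, COX11, COA3 and COX14 lie below the line of their bin and COX15, COX10 and SURF1 above.

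After the GC trend was removed from each library, SCO2 was at -0.80 (SE 0.16) and MTLN at -1.37 (SE 0.23), and both were still called lower. COX17 was at -1.18 (SE 0.26) and joined them, so that 3 of the 10 genes were called lower, beside 2.56% of the 16200 genes tested in this way, and 0 were called higher, beside 2.89% (edgeR, with 1 of the 10 higher at an unadjusted p under 0.05). Since SCO2 and MTLN were chosen for low values in these same libraries, nothing is read from these counts either. From the lowest, MTLN was then 55th and SCO2 497th among protein-coding genes. SCO1, at -0.81 (SE 0.20), came level with SCO2. COX15 stayed positive at 0.62 (SE 0.15) and COX14 negative at -0.59 (SE 0.25), both without a call. COX11 and SURF1 changed sign, to -0.42 (SE 0.15) and 0.23 (SE 0.15). COA3 was at -0.26 (SE 0.23) and COX10 at 0.49 (SE 0.23), neither called. The median of the 10 genes was -0.51, that of all genes 0.03, and rho with GC was -0.0061. On that footing no gene of the 10 was called when control 2, control 3, Oligonol 1 or Oligonol 3 was left out (edgeR, with 4 to 5 lower and 1 to 2 higher at an unadjusted p under 0.05), at log2 fold changes between -0.82 and -0.67 for SCO2 and between -1.35 and -1.21 for MTLN. Without Oligonol 2 MTLN was still called, and SCO2 was not.

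**Figure D3:**
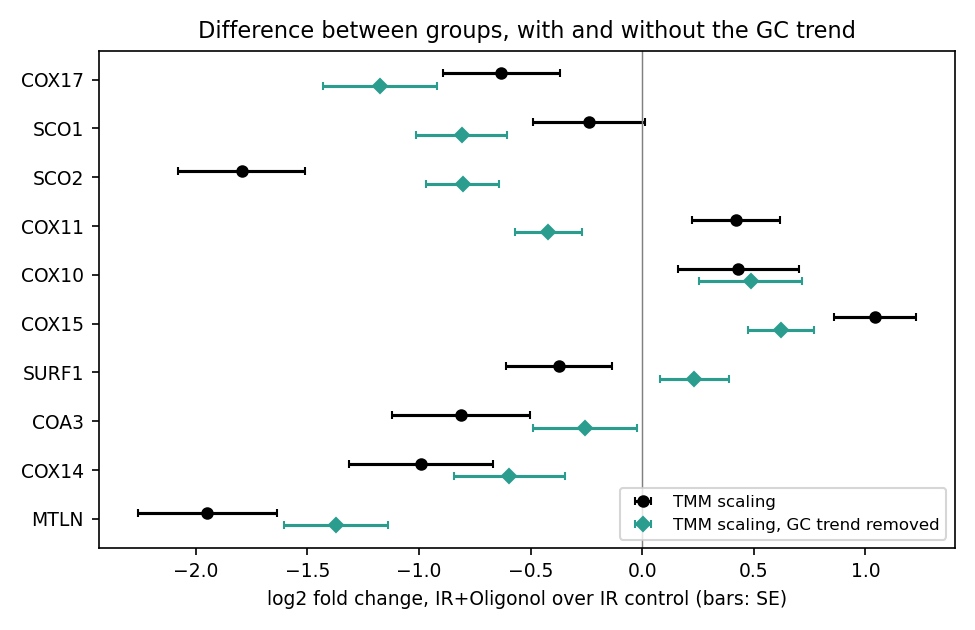
Log2 fold change of IR+Oligonol over IR control for the 10 genes (horizontal axis, with bars of 1 SE) as fitted and after the GC trend was removed. SCO2 moved from -1.79 to -0.80 and MTLN from -1.95 to -1.37, whereas SCO1 and COX17 moved away from 0 and COX11 and SURF1 crossed it.

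The order of the levels also differed between the groups. In controls SURF1, COX14, MTLN and COA3 came first, in that order, and neighbours among them overlapped. SCO2 followed, clear of COA3, then COX11, COX17 and SCO1, again with overlap between neighbours, and COX15 and COX10 came last, clear of SCO1. With Oligonol the order was SURF1, COX14, COA3, COX11, MTLN, COX15, SCO1, COX17, SCO2 and COX10. There only COX11 and MTLN were neighbours whose ranges did not overlap.

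The 10 genes together summed to 51.0, 62.1 and 65.1 CPM in controls and to 32.1, 45.7 and 34.5 CPM with Oligonol. Shares of this sum depend on no scaling between libraries, but they were not adjusted for GC. MTLN made up 17.1% ± 1.82 of it in controls and 6.97% ± 1.64 with Oligonol (SD, n = 3 each), and SCO2 8.44% ± 0.603 and 3.82% ± 0.666. COX15 made up 2.15% ± 0.514 and 7.07% ± 1.56, and COX11 6.08% ± 1.92 and 13.1% ± 3.83. COA3 (16.0% ± 2.85 and 14.4% ± 2.74) and COX17 (4.94% ± 0.983 and 5.30% ± 1.45) differed by less than these spreads. Within libraries the ratio of MTLN (transcript GC 56.6%) to COX15 (47.5%) was 5.64, 10.4 and 8.95 in controls and 0.778, 1.55 and 0.787 with Oligonol. MTLN was chosen for its low value and COX15 was the only gene of the 10 called higher, so nothing is read from this gap. The ratio of SCO2 (transcript GC 66.4%) to SURF1 (56.9%) was 0.360, 0.367 and 0.566 in controls and 0.149, 0.175 and 0.145 with Oligonol.

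**Figure D4:**
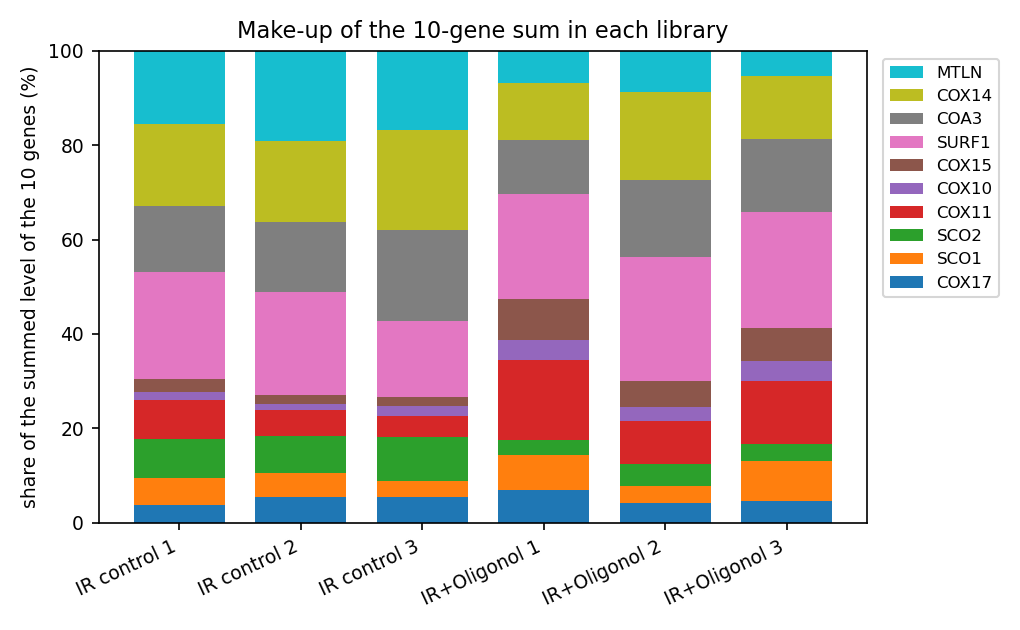
Share of each gene in the summed level of the 10 genes, in percent, for each of the 6 libraries as stacked bars from 0. The SCO2 and MTLN segments are smaller in all Oligonol bars than in all control bars, and the COX15 and COX11 segments are larger on average.

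Several of the 10 genes overlap or face another gene, and reads could be shared where exons coincide. A stranded kit was used per the labels, but the sources used here do not say whether strand entered the counting. SCO2 shares 339 of its 1196 exonic bases with TYMP on the same strand, the gene of thymidine phosphorylase, which fell from 8.16 ± 1.60 to 3.47 ± 1.70 CPM (SD, n = 3 each), a log2 fold change of -1.25 (edgeR, adjusted p = 0.0198). NCAPH2, a condensin subunit gene that overlaps SCO2 on the other strand without shared exonic bases, fell from 14.8 ± 2.00 to 6.09 ± 1.59 CPM, by 1.29 on the log2 scale (edgeR, adjusted p = 0.00833). With library totals alone TYMP was at 0.080 and NCAPH2 at 0.064. Both differences were smaller with the GC trend removed, at -0.31 for TYMP and -0.36 for NCAPH2, and neither was called then, while SCO2 was at -0.80. How estimated reads were divided between SCO2 and TYMP was not tested.

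COX11 shares 909 of its 6488 exonic bases with TOM1L1 on the opposite strand, which rose by 0.98 (edgeR, adjusted p = 0.0106). It shares 59 with STXBP4, which starts 24 bases away on the opposite strand and rose by 1.72 (edgeR, adjusted p = 0.0144). ENSG00000279059, inside COX11 on its strand, rose by 1.68 (edgeR, adjusted p = 0.0117). STXBP4, TOM1L1 and this gene were called higher beside a COX11 at 0.42, and none of these 3 was called with the GC trend removed. COX10-DT, which starts 5 bases from COX10 and runs the other way, rose by 0.94 (edgeR, adjusted p = 0.0304), with 0.08 after the GC trend was removed. SURF2 starts 126 bases from SURF1 on the opposite strand and shares 119 of the 1761 exonic bases of SURF1. It was at 5.57 ± 1.00 and 3.62 ± 1.18 CPM, a log2 fold change of -0.63 (edgeR, adjusted p = 0.0765). With the GC trend removed it was at 0.33, so that SURF1 and SURF2 had the same sign in both fits. COX15 shares 1069 of its 4177 exonic bases with ENSG00000285932 on the same strand, which did not pass the filter, and it overlaps CUTC and ENTPD7 on the other strand, at 0.80 and 0.76 (edgeR, adjusted p = 0.0688 and 0.0618). ENSG00000272368, which shares 105 bases with COX14 on its strand, rose by 1.36 (edgeR, adjusted p = 0.0312; 1.29 with no call once the GC trend was removed), whereas COX14 was at -0.99. COX17 shares 383 of 2172 bases with POPDC2 (log2 fold change -0.38, edgeR, adjusted p = 0.0989). None of the 10 genes had values identical to those of another gene.

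Promoter sequences of RefSeq (GRCh38.p14, 250 bases before to 50 after the start) were found for 8 of the 10 genes, 9 windows in all with 2 for COX17. SCO2 and COX11 had none. The windows of the lowest and the highest called gene with an entry, MTLN (chr2:110212498-110212797) and COX15 (chr10:99732078-99732377), both on the minus strand, are shown with motif matches in capitals.
MTLN: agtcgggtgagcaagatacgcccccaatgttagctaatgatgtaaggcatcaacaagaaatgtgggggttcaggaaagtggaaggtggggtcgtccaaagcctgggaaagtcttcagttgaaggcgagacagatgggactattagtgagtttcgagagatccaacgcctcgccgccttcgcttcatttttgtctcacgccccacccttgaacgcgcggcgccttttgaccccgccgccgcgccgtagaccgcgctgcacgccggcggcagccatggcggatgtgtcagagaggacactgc
COX15: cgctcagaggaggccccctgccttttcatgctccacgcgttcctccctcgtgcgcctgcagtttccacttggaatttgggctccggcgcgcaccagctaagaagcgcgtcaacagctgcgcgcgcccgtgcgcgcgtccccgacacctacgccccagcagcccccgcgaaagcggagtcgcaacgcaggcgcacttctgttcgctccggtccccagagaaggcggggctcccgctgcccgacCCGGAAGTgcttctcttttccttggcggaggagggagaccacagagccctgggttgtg
Motifs of 3 kinds of factor known from promoters of respiratory genes were searched on both strands, ETS (CCGGAAGT), SP1 (GGGCGG) and CREB (TGACGTCA). MTLN held none of these and COX15 held 1 ETS match. The ETS motif was in 4 of the 9 windows (COX15, COX17, SCO1 and COX10) and in 4.14% of 35116 promoters of the same length. SP1 was in 6 of 9 and in 45.0%, and CREB in 0 of 9 and in 1.85%. These are matches of letters only. The first transcribed bases of the MTLN window were found in a GENCODE 29 transcript, and those of the COX15 window were not. The MTLN window lies inside the gene's span given above, far from the upstream end of that span at 110245420.

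The other genes of the pathway were taken from lists that name the rest of the machinery, and their directions hold relative to most genes, as TMM sets them. With library totals alone the median of all genes shifts as above, and of the list genes named below with a negative value in either fit, only COX8A and MICOS13 are negative on that scale. For all the lists below, the shares over all genes tested were 26% higher and 23% lower as fitted. With the GC trend removed they were 2.89% and 2.56%. No list was tested as a set. Of 25 other assembly factors of complex IV tested, 2 were higher and 5 lower with Oligonol, with a median log2 fold change of -0.18. LRPPRC, which stabilises mitochondrial mRNAs, rose from 3.42 ± 0.630 to 10.7 ± 2.05 CPM (SD, n = 3 each), by 1.64 on the log2 scale (edgeR, adjusted p = 0.00620), and stayed higher with the GC trend removed at 0.77. TMEM177, a factor for COX2, fell by 0.94 (adjusted p = 0.00920), and FDX2, a mitochondrial ferredoxin, by 1.31 (adjusted p = 0.00965). The others called, named after their values were seen, were COX20 (higher) and FDXR, HIGD2A and PET100 (lower). Removal of the GC trend ended all 5 lower calls, with TMEM177 at -0.25, FDX2 at -0.36, FDXR at -0.21, HIGD2A at -0.46 and PET100 at -0.74, and COX20 turned to -0.23. COA6 (-1.16), COA8 (-0.78), CMC2 (-0.78) and SMIM20 (-1.07), named after their values were seen, were then called lower, so that 1 of the 25 was higher and 4 were lower.

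Of 14 nuclear genes for complex IV subunits, 12 were tested, with a median of -0.41. Of these, 0 were higher (edgeR, beside 26% of all genes tested) and 4 were lower (beside 23%). COX8A fell from 187 ± 26.9 to 63.3 ± 32.2 CPM (SD, n = 3 each), a log2 fold change of -1.57 (edgeR, adjusted p = 0.0143). COX6A1 (-1.21, adjusted p = 0.0205) and COX5B (-1.22, adjusted p = 0.0210) fell too, and the last of the 4, named after its value was seen, was COX6B1. With the GC trend removed these 4 were no longer called, and 4 others were: COX7B, COX7C, COX6C and NDUFA4, all lower and all named after their values were seen. Over all genes tested, 2.56% were called lower in that fit. COX7B was at -0.47 as fitted and at -1.36 with the trend removed, and COX7C at -0.50 and -1.40. The 3 subunits that the mitochondrial genome encodes had no call in either fit. As fitted, MT-CO1 was at -0.25, MT-CO2 at -0.01 and MT-CO3 at -0.67 (edgeR, adjusted p = 0.430, 0.976 and 0.0930). With the GC trend removed they were at -0.78, -0.55 and -1.17 (edgeR, adjusted p = 0.0891, 0.275 and 0.0671), beside SCO2 at -0.80. SCO2, which serves COX2, was lower beside an MT-CO2 without a call, whose sign turned with the scaling.

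Among 10 genes for copper transport and chaperones 3 rose (beside 26% of all genes tested) and 1 fell (beside 23%), and the median was 0.30. ATP7A, the copper exporter, rose from 2.59 ± 0.541 to 8.52 ± 1.35 CPM (SD, n = 3 each), by 1.73 on the log2 scale (edgeR, adjusted p = 0.00606), and it was still called with the GC trend removed, at 0.74. MTF1, the metal-responsive transcription factor, rose by 0.99 (adjusted p = 0.0201), and so did SLC31A1, the copper importer, by 0.66 (adjusted p = 0.0323, named after its value was seen). CCS, the chaperone of superoxide dismutase, fell by 0.74 (adjusted p = 0.0181) but was at 0.16 with the GC trend removed. MTF1 (0.51) and SLC31A1 (0.11) also lost their calls then, which left ATP7A as the 1 gene of the 10 called.

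Among 11 genes of haem synthesis 1 rose (beside 26% of all genes tested) and 2 fell (beside 23%), and the median was -0.35. PPOX and UROD, which act late in the pathway, fell by 1.17 and 1.18 (edgeR, adjusted p = 0.00988 and 0.0126), and CPOX, between them, rose by 0.74 (adjusted p = 0.0335). Removal of the GC trend left 0 of the 11 called in edgeR.

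Mitoregulin is linked to fatty acid oxidation. Of 12 genes listed under long-chain oxidation 4 rose (beside 26% of all genes tested) and 4 fell (beside 23%), around a median of -0.36. The list is broad, and whether each of its genes serves this oxidation in these cells was not tested. CPT1C, a brain member of the carnitine palmitoyltransferase family, fell by 1.16 (edgeR, adjusted p = 0.00938). ACADVL, the very long-chain acyl-CoA dehydrogenase, fell by 1.18 (edgeR, adjusted p = 0.0127). ETFB, a subunit of the electron transfer flavoprotein, fell by 1.20 (edgeR, adjusted p = 0.0139). Removal of the GC trend left 0 of the 12 called in edgeR. MTLN, chosen for its low value, was still called lower then, but not with the replicate number as a block as well.

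Of 15 other genes for mitochondrial micropeptides and small proteins, 14 were tested, with a median of -0.43. Of these, 2 were higher (beside 26% of all genes tested) and 4 lower (beside 23%). STMP1, a short mitochondrial protein, rose by 0.96 (edgeR, adjusted p = 0.00817), and MICOS13, a subunit of the cristae-organising complex, and NDUFAF8, a complex I assembly factor, fell by 1.37 and 1.23 (adjusted p = 0.0111 and 0.0159). Once the GC trend was removed none of these 3 was called and 3 others were lower, TOMM7, TOMM5 and ATP5MK, named after their values were seen. Over all genes tested, 2.56% were then called lower. MTLN was at -1.95 and -1.37 in the 2 fits. As it was chosen for its low value, nothing is read from its place below this list.

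**Figure D5:**
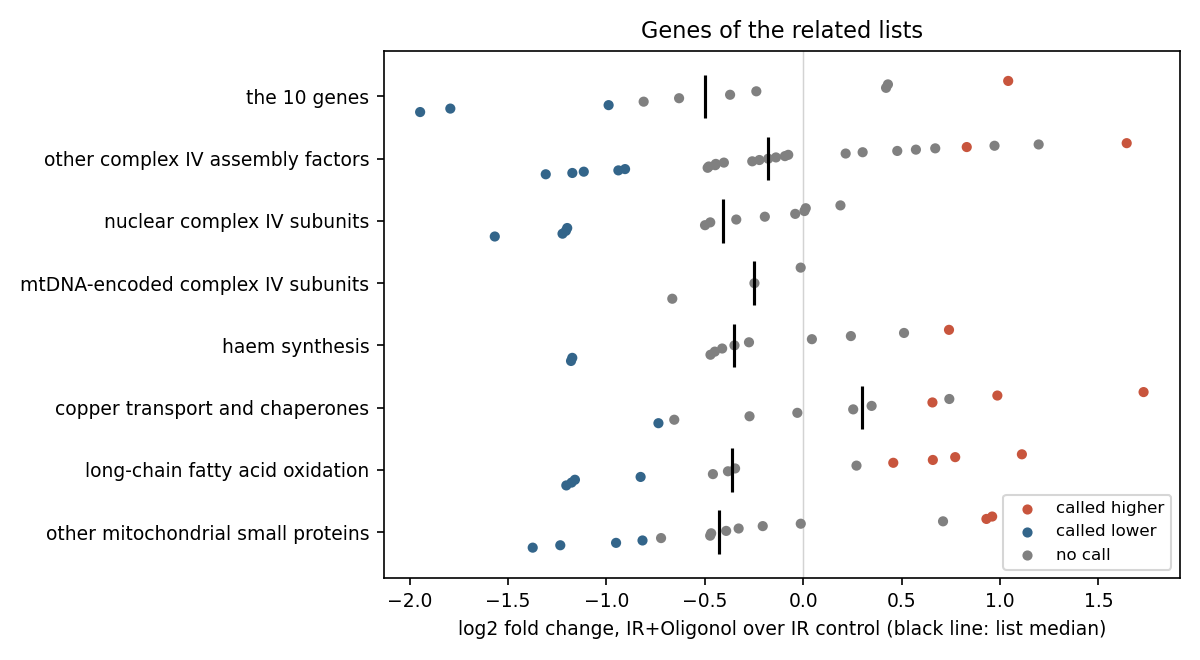
Log2 fold change of IR+Oligonol over IR control for the tested genes of each pathway list and for the 10 genes, 1 point per gene, with the list median as a line. The medians of the pathway lists lie between -0.43 and 0.30, that of the 10 genes at -0.50, and SCO2 and MTLN lie at -1.79 and -1.95.

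The protein-coding genes most like SCO2 in pattern were named by the distance between log2 levels, each gene centred on its own mean, over the 6 libraries. They were TNFRSF12A (0.186), H4C12 (0.226), FUOM (0.235), TSPO (0.239) and ANTKMT (0.248), beside a median distance of 2.42 over all protein-coding genes tested. Those nearest to MTLN were SIVA1 (0.338), H3C13 (0.345), SELENOW (0.402), H2AW (0.414) and H4C12 (0.418), beside a median of 2.67. With the GC trend removed, PA2G4 (0.126), PSMB2 (0.136), PGAP4 (0.136), TXNL4A (0.164) and PSMA7 (0.167) were nearest to SCO2, and TMEM258 (0.305), TMEM256 (0.334), SEC61B (0.359), NDUFA2 (0.367) and SNRPB2 (0.374) to MTLN. None of the 5 nearest genes was shared between the 2 ways of processing, for SCO2 or for MTLN. H4C12 and H3C13 are histone genes with near-identical copies, so their own values are uncertain.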

How the data were processed

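RNA of 6 libraries (3 IR control, 3 IR+Oligonol) was sequenced with a stranded total RNA kit, per the labels. Tools listed in the submitters' processing notes were kallisto 0.46.1, FastQC and edgeR, beside the build GRCh38.p13, without roles. The authors deposited, for each library, estimated counts and a signal that was the estimated count times 1 constant, which was not used further. The step from transcripts to genes is not recorded in those notes. The deposited estimated counts were not whole in 99.0 to 99.1% of values and followed abundance per transcript length: among low genes with 1 transcript of 500 to 1500 nt, 69.7 to 72.5% of values lay within 0.05 of whole reads after fitting a scale, on which 1 read of 1000 nt was worth 0.311 to 0.546 estimated counts. Read numbers given for a gene are estimates from that scale and its median transcript length, so count-based errors are approximate.

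Estimated counts were rounded, filtered with filterByExpr and fitted in edgeR 4.0.16 by its quasi-likelihood test (TMM scaling, robust dispersions, no covariates, 2-sided; R 4.3.3). Benjamini-Hochberg adjustment ran over 16574 genes at 0.05. The GC trend was a natural spline (5 degrees of freedom) of centred log2 CPM (prior count 2) on transcript GC, fitted per library to protein-coding genes and used as the fit's offset. It also removes any true change that follows GC. GENCODE 29 gave lengths, GC and overlaps for 58308 gene identifiers. The fit was tested on simulated data. Alternatives were other scalings and filters, DESeq2 1.42.0, limma-voom (limma 3.58.1), the replicate number as a block, read equivalents, each library left out, and a threshold of 0.01.

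The genes and lists were chosen with earlier results of these data known. The text names all 10 genes, the 3 genes of smallest p in each list, all neighbours that were tested and the 5 genes nearest in pattern to SCO2 and to MTLN. The labels do not say whether replicates were separate cultures. The p-values then measure only spread among these libraries, and that may be technical.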

Additional observations from a re-analysis of the deposited data

How the results depend on the processing

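With library totals only, 11293 genes were higher and 37 lower, and 7 and 1 of the 10 genes. The signs of SCO1 (1.17), COX17 (0.80), SURF1 (0.95), COA3 (0.55), COX14 (0.34), CCS (0.63), PPOX (0.15), UROD (0.15), CPT1C (0.18), ACADVL (0.17), ETFB (0.14), MT-CO3 (0.72), MT-CO1 (1.11), MT-CO2 (1.30), COX6A1 (0.12), COX5B (0.11), TMEM177 (0.45), FDX2 (0.040), COA6 (0.95), COA8 (0.93), CMC2 (1.22), PET100 (0.30), SMIM20 (1.15), HIGD2A (0.43), FDXR (0.18), COX6B1 (0.14), COX6C (1.06), COX7B (0.93), COX7C (0.91), NDUFA4 (1.36), ATP5MK (0.96), TOMM5 (0.93), TOMM7 (0.67), NDUFAF8 (0.11), TYMP (0.080), NCAPH2 (0.064), POPDC2 (0.98) and SURF2 (0.72) turned then. With no filter 1603 genes were lower, and at a threshold of 0.01 1401 were higher and 779 lower. With at least 10 counts in all libraries 3 of the 10 genes were higher and SCO1 was at 0.024, CMC2 at 0.078, SMIM20 at 0.026 and NDUFA4 at 0.21. DESeq2 called 5 of the 10 lower. With the GC trend removed 468 genes were higher and 414 lower, 0 of the 10 genes were higher (edgeR, 1 at an unadjusted p under 0.05), and COX11 (-0.42), SURF1 (0.23), CCS (0.16), COX20 (-0.23) and SURF2 (0.33) changed sign. NDUFA4 was at 0.052 with upper-quartile scaling and 0.014 with library sizes from protein-coding genes. MT-CO2 was at 0.071 with upper-quartile scaling, 0.034 with library sizes from protein-coding genes, 0.22 with at least 10 counts, 0.014 with limma-voom and 0.014 with the replicate block. The cause was not tested.

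Leaving out each library in turn gave 2118 to 4540 genes higher and 1321 to 4381 lower, with 2 to 5 of the 10 genes lower and 1 higher. With the GC trend also removed the ranges were 0 to 639 and 0 to 666 (edgeR, at least 1575 and 1458 at an unadjusted p under 0.05), 0 to 3 of the 10 lower and 0 to 0 higher, COX11 from -0.52 to -0.27, SURF1 from 0.12 to 0.34, CCS from 0.049 to 0.25, SURF2 from 0.24 to 0.48, COX10-DT from -0.033 to 0.21 and POPDC2 from -0.099 to 0.015. Without that removal MT-CO2 ran from -0.21 to 0.20, COX11 from 0.31 to 0.57, SURF1 from -0.61 to -0.21, CCS from -0.86 to -0.63, SURF2 from -0.93 to -0.48, COX10-DT from 0.79 to 1.13 and POPDC2 from -0.51 to -0.30. COX20 ran from -0.36 to 0.91 and NDUFA4 from -1.24 to 0.022 over both sets. With the removal MT-CO2 ran from -0.73 to -0.34.

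Whether the replicate numbers pair the libraries cannot be told from 3 libraries per group. Deviations from the group means correlated at 0.0870, -0.0087 and -0.147 for same-numbered libraries, and at -0.186 to 0.191 for differently numbered ones. With the number as a block, 3560 genes were higher and 3470 lower, SCO2 was at -1.82, MTLN at -1.98 and COX15 at 1.04. With the replicate block and the GC trend removed, 0 genes were higher and 0 lower (edgeR, 2001 and 1994 at an unadjusted p under 0.05), 0 of the 10 genes were higher and 0 lower (1 and 6 unadjusted), and COX11 was at -0.41, SURF1 at 0.24, CCS at 0.17, COX20 at -0.22 and SURF2 at 0.34. Depth was low for COX17 (48.1 to 91.7 estimated reads in controls), COX10 (60.9 to 116 in controls), MTLN (45.8 to 86.8 with Oligonol) and SCO2 (58.6 to 103 with Oligonol).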
